A study of Mus musculus with 20 samples.

Results

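The 9 genes described here are textbook markers of the projection neurons of the striatum, 4 for the direct pathway (Drd1a, Tac1, Pdyn and Isl1) and 5 for the indirect pathway (Drd2, Adora2a, Penk, Gpr6 and Six3). They were taken by name from the 23413 genes counted in each library. All 9 passed the filter on low counts, which left 15660 genes to test. The names were proposed with the female diet comparison known, so the values of that comparison are given as a description.

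RNA-seq had been carried out on cortex tissue from 20 mice aged 22 months. All 20 carried the APOE4 knock-in, and no mice of another genotype were part of the series used here. Mice had been fed a control diet (CD) or a ketogenic diet (KD) for 12 months, from 10 months of age, which gave 4 groups. The females numbered 5 on CD and 4 on KD, and the males 5 on CD and 6 on KD. Each library came from 1 mouse, which is named below by its label number. The libraries carry numbers of 2 separate ranges, called library series 1 and 2. Totals ran from 21015275 to 29109990 counts in series 1 and from 12207161 to 17697342 in series 2.

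Spiny projection neurons make up most of the striatum, the input nucleus of the basal ganglia, and use GABA. Neurons of the direct pathway project to the basal ganglia output nuclei and carry the D1 dopamine receptor, whose G protein raises cAMP. Neurons of the indirect pathway project to the external pallidum and carry the D2 dopamine receptor, which lowers cAMP, together with the adenosine receptor Adora2a, which raises it. The cortex is a target of this circuit through the thalamus and lies above the striatum, from which it is separated by the white matter of the corpus callosum.

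Within each class the members have different jobs. Drd1a (the older symbol of Drd1) and Drd2 encode the dopamine receptors, Adora2a encodes an adenosine receptor, and Gpr6 encodes a constitutively active receptor coupled to cAMP. Tac1 is the precursor of substance P, Pdyn that of dynorphins and Penk that of enkephalins. Isl1 and Six3 are homeobox transcription factors used in the development of the direct and the indirect class, respectively. Isl1 is also a known gene of forebrain cholinergic neurons, and Pdyn of dentate granule cells.

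In the GRCm38 annotation (the assembly also called mm10), Drd1 lies on chromosome 13 from 54051183 to 54055705 (minus strand) and Isl1 on the same chromosome from 116298281 to 116309689 (minus strand). Tac1 lies on chromosome 6 from 7554879 to 7565834 (plus strand) and Pdyn on chromosome 2 from 129686565 to 129699844 (minus strand). Drd2 is on chromosome 9 from 49340627 to 49408177 (plus strand). Adora2a, from 75316877 to 75334784 (plus strand), and Gpr6, from 41069977 to 41072285 (minus strand), are both on chromosome 10. Penk is on chromosome 4 from 4133531 to 4138819 (minus strand) and Six3 on chromosome 17 from 85613608 to 85629302 (plus strand). Members of a class are thus spread over the genome. Penk overlaps 1 annotated gene, A830012C17Rik on the opposite strand, and Six3 overlaps 7, among them Six3os1 on the opposite strand. The strand setting of the counts is not given in the sources used here, so reads of Penk and Six3 could not be told apart from those of their antisense partners. The other 7 members overlapped no annotated gene.

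The 250 bases before the RefSeq start site are shown for 2 members of each class, as examples of a peptide precursor, a transcription factor and receptors, searched for the DNA element of CREB, the cAMP-dependent factor that the study followed. The sequences are from RefSeq (GRCm38.p6), 5′ to 3′ on the gene's strand. The windows are chr2:129699939-129700188 (minus strand) for Pdyn, chr13:116309689-116309938 (minus strand) for Isl1, chr9:49340153-49340402 (plus strand) for Drd2 and chr10:41072291-41072540 (minus strand) for Gpr6. Capitals mark the cAMP response element TGACGTCA, its 5-base part TGACG (which the full element contains on both strands), the TATA box TATAAA and the GC box GGGCGG, each searched on both strands.
Pdyn: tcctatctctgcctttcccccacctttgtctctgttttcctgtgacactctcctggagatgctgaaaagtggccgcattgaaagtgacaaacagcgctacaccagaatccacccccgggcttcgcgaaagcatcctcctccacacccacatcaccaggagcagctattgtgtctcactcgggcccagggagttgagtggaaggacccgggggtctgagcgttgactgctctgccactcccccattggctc
Isl1: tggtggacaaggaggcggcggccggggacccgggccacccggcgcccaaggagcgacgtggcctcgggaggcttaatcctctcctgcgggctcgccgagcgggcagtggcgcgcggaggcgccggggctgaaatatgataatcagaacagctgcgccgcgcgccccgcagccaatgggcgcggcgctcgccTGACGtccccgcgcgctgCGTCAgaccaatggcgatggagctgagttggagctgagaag
Drd2: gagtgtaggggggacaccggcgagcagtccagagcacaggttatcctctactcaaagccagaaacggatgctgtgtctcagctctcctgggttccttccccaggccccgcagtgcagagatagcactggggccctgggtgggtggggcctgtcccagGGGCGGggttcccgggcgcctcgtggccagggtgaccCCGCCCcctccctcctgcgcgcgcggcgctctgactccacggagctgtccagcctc
Gpr6: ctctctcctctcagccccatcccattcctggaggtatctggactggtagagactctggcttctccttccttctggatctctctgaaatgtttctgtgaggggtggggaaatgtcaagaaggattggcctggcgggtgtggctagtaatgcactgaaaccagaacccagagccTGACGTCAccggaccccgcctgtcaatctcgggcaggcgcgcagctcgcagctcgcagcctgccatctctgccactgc
Windows were found for 7 of the 9 members, with 2 start sites for Drd1 and for Pdyn, which makes 9 windows. The full element TGACGTCA was found in the Gpr6 window alone among them, from 78 to 71 bases before the start, and in 1.55% of all 32851 windows of this length. The part TGACG was found in the windows of Gpr6, Isl1 and Tac1, and in 17.8% of all windows. The GC box was found in 1 Drd1 window and in those of Drd2 and Tac1, against 32.7% of all windows, and TATAAA in none of the 9, against 12.4%. None of these motifs was found in all windows of either class.

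Levels are given as CPM, the count of a gene scaled to the same total in every library. A few libraries stood apart from the rest of their own groups, and every group result below depends on them. The KD females E61, E68 and E207 and the KD male E59 held the 4 highest values of Drd1a, Tac1, Pdyn, Drd2, Adora2a, Penk, Gpr6 and Six3, and all 4 were among the 5 highest for Isl1. The CD female E249 came next for Drd1a, Tac1, Drd2, Penk and Six3 and was in 3rd place for Isl1. The remaining KD female, E227, lay with the CD libraries. Because whole tissue was sequenced, a library with fewer cells of a type cannot be told apart from one with less RNA per cell.

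**Figure D1:**
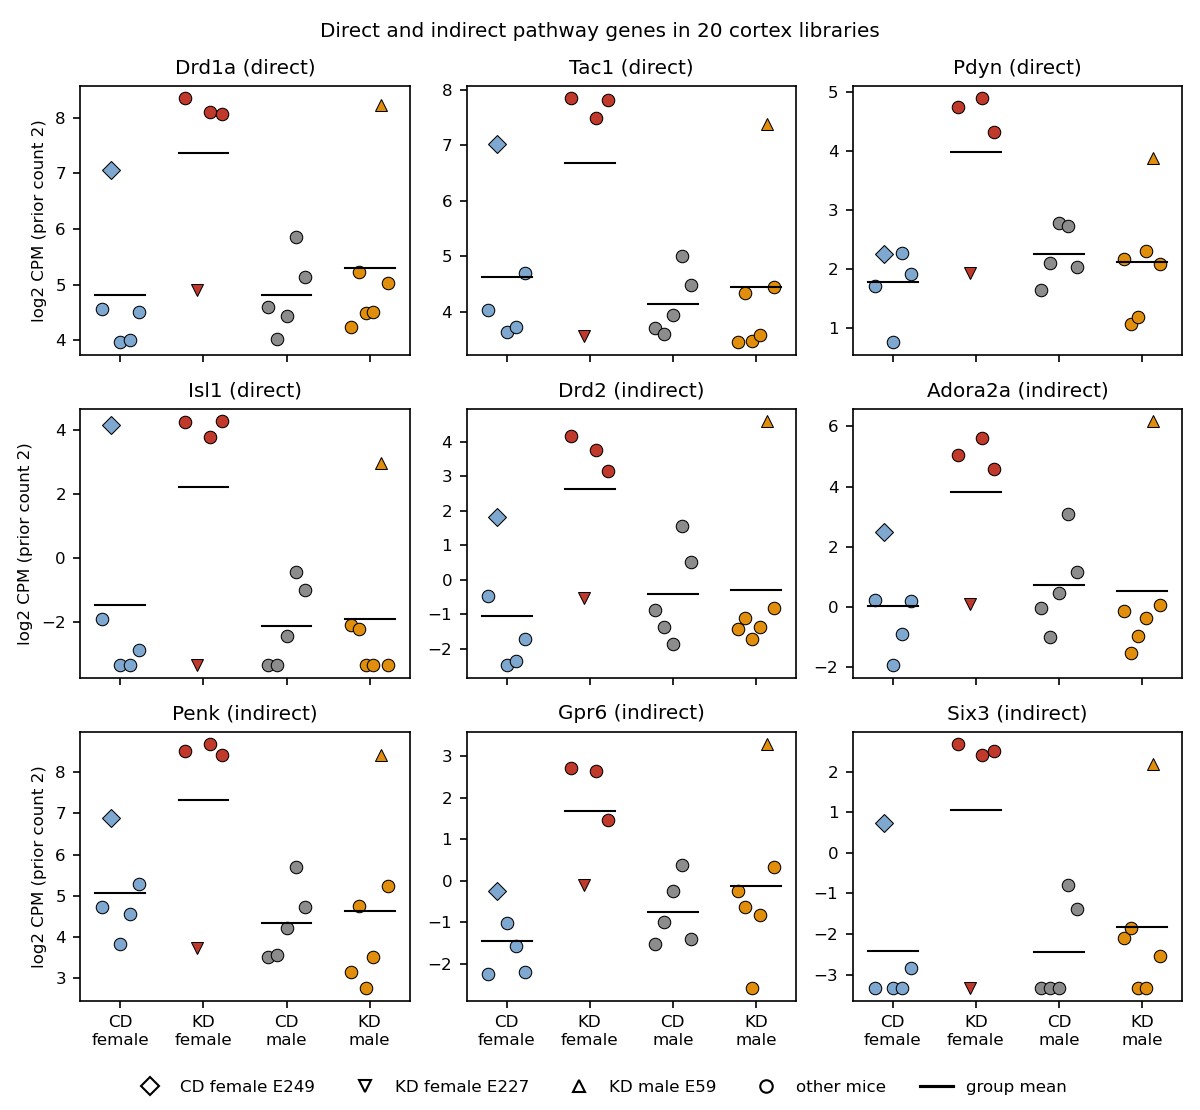
Each point is 1 of 20 libraries, plotted as log2 CPM (prior count 2) for the 4 direct and 5 indirect pathway genes in the 4 groups, with bars at the group means; the vertical scale differs between panels. Diamonds (CD female E249), upward triangles (KD male E59) and downward triangles (KD female E227) lie far from most of the mice of their own group in most panels, while Pdyn of E249 lies among the other CD females.

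The D1 receptor gene Drd1a was at a higher level than Drd2 in every library, also per kilobase of annotated exon. In CD females it was at 16.0, 22.6, 133, 15.5 and 23.5 CPM (E62, E67, E249, E265 and E228), and in KD females at 276, 267, 326 and 30.0 CPM (E61, E68, E207 and E227). CD males gave 21.5, 58.1, 35.3, 24.1 and 16.1 CPM (E51, E58, E66, E251 and E264), and the 6 KD males ran from 18.9 over a median of 27.8 to 299.5 CPM, the last in E59. Of the 4 KD females, 3 lay above all CD females, and a single KD male lay above all CD males.

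Tac1, the substance P precursor, gave 13.1, 26.0, 130, 12.3 and 16.3 CPM in CD females and 179, 225, 230 and 11.7 CPM in KD females, with the mice in the same order. In CD males it was at 15.3, 31.8, 22.2, 12.9 and 12.0 CPM, and in KD males from 10.8 over 16.0 to 166 CPM. E227 was the lowest of all 9 females for this gene, so the KD females spanned the whole female range.

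Pdyn, the dynorphin precursor, did not follow the rest of its class in E249. CD females gave 4.71, 3.69, 4.67, 1.59 and 3.16 CPM and KD females 29.7, 19.9, 26.9 and 3.71 CPM. CD males gave 6.76, 6.49, 3.99, 3.01 and 4.20 CPM, and KD males ran from 1.99 over 4.28 to 14.7 CPM. E249, which exceeded every other CD female for each of the other 8 members, ranked below E62 for Pdyn.

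Isl1 was close to absent outside the same few libraries. Its counts were 0, 1, 220, 0 and 3 in CD females and 352, 452, 260 and 0 in KD females, or up to 18.0 and 19.5 CPM. CD males had 2, 19, 10, 0 and 0 counts, and among KD males E59 had 206 while the other 5 had at most 2. Of the 20 libraries, 8 held no Isl1 count, which allows levels of up to 0.107 to 0.238 CPM depending on depth (3 counts; counting error only). The groups overlapped in both sexes, with 2 of 4 KD females above E249.

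In the indirect class, Drd2 gave 0.0952, 0.203, 3.44, 0.0794 and 0.622 CPM in CD females and 13.3, 8.70, 17.7 and 0.598 CPM in KD females. CD males gave 0.173, 2.85, 1.33, 0.439 and 0.287 CPM, and KD males ran from 0.203 over 0.324 to 24.0 CPM. The highest of all 20 values was thus that of the KD male E59, ahead of every KD female.

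Adora2a, the adenosine receptor gene, gave 0.428, 1.05, 5.49, 0.159 and 1.07 CPM in CD females and 48.9, 23.9, 33.2 and 0.957 CPM in KD females. In CD males it was at 1.26, 8.49, 2.14, 0.879 and 0.402 CPM and in KD males from 0.241 over 0.747 to 72.3 CPM. The CD male E58, at 8.49 CPM, exceeded all 5 CD females, E249 included.

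Penk, the enkephalin precursor, gave 23.4, 39.0, 119, 14.2 and 26.3 CPM in CD females and 409, 340, 363 and 13.1 CPM in KD females. CD males gave 18.4, 51.8, 26.4, 11.2 and 11.6 CPM, and KD males ran from 6.63 over 19.1 to 341 CPM. E227 was again the lowest of all females.

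Gpr6 was the only member whose female groups did not overlap. CD females gave 0.238, 0.122, 0.737, 0.397 and 0.113 CPM and KD females 6.10, 2.67, 6.40 and 0.837 CPM, where the lowest KD value rested on 14 counts and the highest CD value on 9. CD males gave 0.737, 1.20, 0.282, 0.251 and 0.402 CPM, and KD males ran from 0.0677 over 0.644 to 9.63 CPM. Separation of the female groups was seen in 1 of 9 members, and in 2.1% of all 15660 genes tested; in males it was seen in 0 of 9 members and in 0.217% of genes.

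Six3 had 0, 1, 19, 0 and 0 counts in CD females and 134, 130, 86 and 0 in KD females, up to 1.56 and 6.33 CPM. CD males had 0, 14, 7, 0 and 0 counts, and among KD males E59 had 118 while the other 5 had at most 3. No count was found in 9 libraries, which allows up to 0.107 to 0.238 CPM. Libraries without Six3 were found in every group.

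Levels of different members were compared per kilobase of annotated exon. In KD females Penk had the highest median, 215 CPM per kb, followed by Drd1a at 74.9 and Tac1 at 59.4 CPM per kb, then Adora2a at 9.32, Pdyn at 8.11, Drd2 at 4.31, Isl1 at 4.14, Gpr6 at 2.45 and Six3 at 0.992 CPM per kb. In CD females the medians ran from 16.1 CPM per kb for Penk to 0 for Six3. Penk, Drd1a and Tac1 were the top 3 in all 4 groups by this median. On CD the ranges of Tac1 (3.62 to 38.1 in females, 3.53 to 9.36 in males) lay above those of Pdyn (0.550 to 1.63 and 1.04 to 2.34 CPM per kb). When each group was ordered by its own medians, all other neighbours overlapped in range.

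The class scores summarise these patterns. For each library the log2 CPM of every gene was centred on its mean over the 20 libraries and averaged within the class, and the balance is the direct minus the indirect score. Direct scores were 3.36, 3.18 and 3.13 in E207, E68 and E61, 2.68 in E59 and 2.19 in E249, and indirect scores were 3.70, 3.11, 3.70, 4.02 and 1.42 in the same libraries. The CD male E58 followed at 0.35 and 1.07, and no other library was above 0 in either score.

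**Figure D2:**
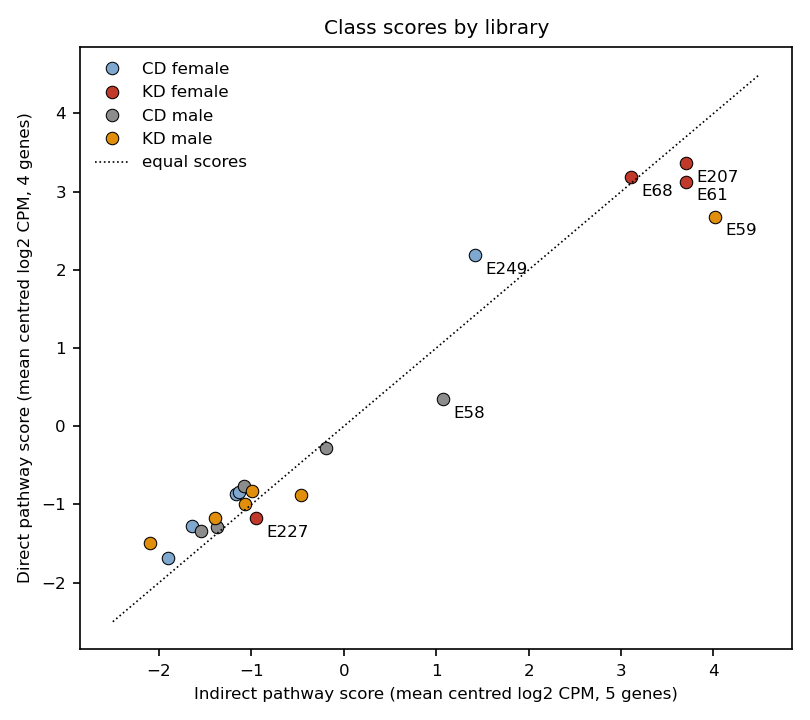
Each point is 1 library, with the indirect score on the horizontal axis and the direct score on the vertical axis, both as mean centred log2 CPM; the dotted line marks equal scores. E249 lies above the line with a balance of 0.77, and E59 lies farthest below it, at -1.34.

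The balance differed between the libraries with high scores. It was 0.77 in E249, 0.08 in E68, -0.34 in E207, -0.57 in E61 and -1.34 in E59. The first and the last of these were the extremes of all 20 libraries. The CD females ran from 0.22 to 0.77 and the KD females from -0.57 to 0.08, without overlap, whereas CD males (-0.72 to 0.32) and KD males (-1.34 to 0.61) overlapped widely. Without Isl1 and Six3 the balance of E249 was -0.02 and that of E59 -1.84, so the positive balance of E249 rested on the transcription factors. With class medians instead of means the female ranges overlapped, at 0.02 to 0.55 for CD and -1.04 to 0.11 for KD.

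Shares of counts within pairs of members do not depend on scaling between libraries and are given with counting intervals (exact Clopper-Pearson, 95%). The order of these libraries by the balance was also that for Isl1 with Adora2a and for Isl1 with Six3, but not for the other pairs. The genes of the pairs are themselves terms of the balance, so a shared order is not a separate line of evidence. Isl1 made up 76.7% (71.3 to 81.4) of the counts of Isl1 and Adora2a in E249, 44.9% (41.8 to 48.1) in E68, 36.6% (33.0 to 40.2) in E207, 21.8% (19.9 to 23.9) in E61 and 9.79% (8.55 to 11.1) in E59. None of these intervals overlapped. These intervals cover counting error only and not the spread between mice.

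For the receptor pair, Drd1a made up 97.5% (96.6 to 98.2) of the counts of Drd1a and Drd2 in E249, 96.8% (96.4 to 97.3) in E68, 95.4% (94.9 to 95.9) in E61, 94.9% (94.2 to 95.5) in E207 and 92.6% (92.0 to 93.1) in E59. Tac1 made up 52.1% (50.3 to 53.9) of the counts of Tac1 and Penk in E249 and 30.4% (29.7 to 31.1) to 39.9% (39.0 to 40.7) in the 3 KD females, with E59 at 32.7% (31.9 to 33.5). Isl1 made up 92.1% (87.9 to 95.1) of Isl1 and Six3 in E249, 72.4% to 77.7% in the 3 KD females and 63.6% (58.1 to 68.8) in E59. The opioid precursors gave another order, since Pdyn made up 3.78% (2.87 to 4.87) of the counts of Pdyn and Penk in E249, 4.13% (3.74 to 4.55) in E59 and 5.55% to 6.89% in the 3 high KD females. Its share reached 16.8% in CD females, 22.1% in E227, 26.9% in CD males and 33.5% in KD males. Among these 5 libraries E249 thus had the highest direct share in 4 of the 5 pairs and the lowest for Pdyn with Penk. For Drd1a with Drd2 the intervals of E249 and E68 overlapped, and for Pdyn with Penk those of E249 and E59 did.

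**Figure D3:**
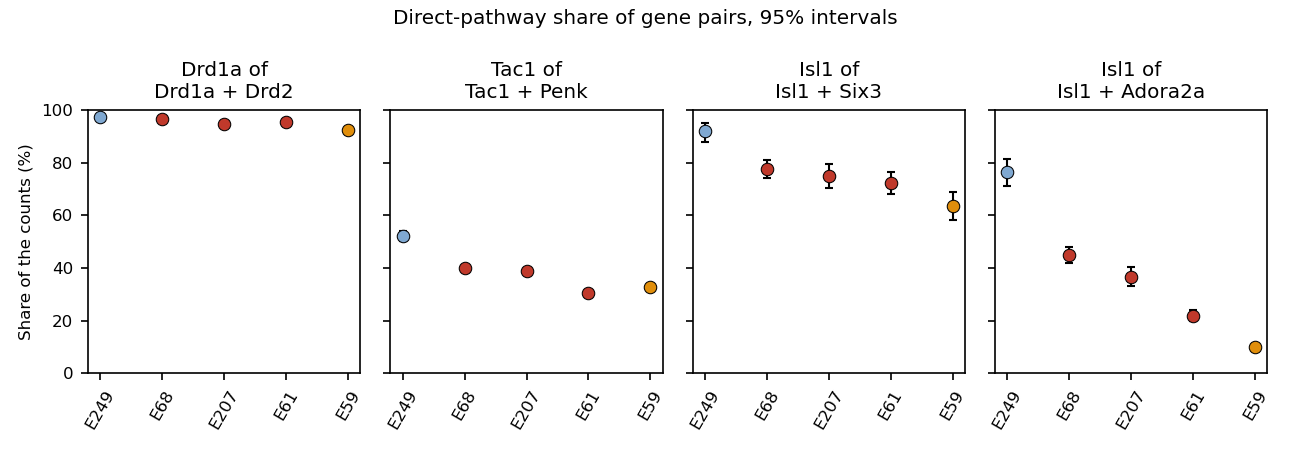
Points give the percentage of the counts of a gene pair that belongs to the direct-pathway gene in the CD female E249 (blue), the KD females E68, E207 and E61 (red) and the KD male E59 (orange); bars are exact 95% intervals for counting error. For Isl1 with Adora2a the share falls from 76.7% in E249 to 9.79% in E59.

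Gpr6 and Adora2a belong to the same class. Gpr6 made up 10.1% to 16.2% of the counts of Gpr6 and Adora2a in the 3 high KD females, 11.8% in E59 and 11.8% in E249, but 46.7% (28.3 to 65.7, of 30 counts) in E227. High shares were not particular to E227: they reached 50.0% in CD males, 69.2% in KD males and 71.4% in CD females, all from few counts.

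Diet effects were fitted across all genes with edgeR's quasi-likelihood test. A gene was called at a false discovery rate (FDR, Benjamini-Hochberg) of at most 0.1 and a change of at least 1.5-fold. All 9 members had higher fitted levels in KD than CD females, and none was called. In the same contrast 7 of 15660 genes were called (0.0447%), and 1780 had an unadjusted p under 0.05. With the same model, DESeq2's Wald test called 2 members and 1.62% of genes, and edgeR's likelihood ratio test 2 members and 1.4% of genes. Since the members were chosen on this contrast, nothing is read from their number.

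The fitted log2 fold changes in females were 2.09 (SE 0.87) for Drd1a, 1.68 (SE 0.90) for Tac1, 2.33 (SE 0.48) for Pdyn and 1.41 (SE 1.69) for Isl1. In the indirect class they were 3.26 (SE 1.42) for Drd2, 3.47 (SE 1.46) for Adora2a, 2.13 (SE 0.99) for Penk, 3.62 (SE 1.004) for Gpr6 and 3.68 (SE 1.54) for Six3. The medians were 1.89 for the direct and 3.47 for the indirect class, beside 0.01 over all genes tested. Pdyn and Gpr6, for which E249 ranked no higher than 9 of 20, had the smallest errors relative to their size.

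The female values and calls depended on single libraries. Without the CD female E249 all 9 members were called higher, along with 3.98% of all genes (6.66% were called in either direction, 1046 genes), and the fitted values ran from 2.57 for Pdyn to 8.32 for Six3. Without the KD female E227, 2 members were called, with 906 genes (5.68%). Without the KD male E59, which shares the fit's estimate of the spread, 2 members were called, with 38 genes (0.245%). Without E207, the sole high KD female of library series 2, the value of Isl1 was -0.46 and the others ran from 0.79 (Tac1) to 2.65 (Gpr6). Within library series 1 alone, where the KD females are E61 and E68, 1 member was called, with 865 of 15966 genes (5.42%). The median of the 9 fitted values was 4.55 in series 1 and 2.22 in series 2.

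In males none of the 9 members was called, nor was any of the 15660 genes (0%). There were 557 genes with an unadjusted p under 0.05. DESeq2's Wald test also called 0 members. The fitted log2 fold changes were 1.15 (SE 0.78) for Drd1a, 1.01 (SE 0.81) for Tac1, 0.12 (SE 0.43) for Pdyn and 2.38 (SE 1.86) for Isl1. They were 1.87 (SE 1.24) for Drd2, 1.98 (SE 1.25) for Adora2a, 1.42 (SE 0.90) for Penk, 1.76 (SE 0.83) for Gpr6 and 2.25 (SE 1.46) for Six3, and each adjusted p was 0.9998 or above (edgeR).

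The male values rested on E59. Without it 8 of the 9 fitted values were below 0: -0.23 for Drd1a, -0.32 for Tac1, -0.38 for Pdyn, -2.81 for Isl1, -1.70 for Drd2, -1.90 for Adora2a, -0.24 for Penk and -1.28 for Six3, with Gpr6 at 0.09. The CD male E58 was the highest of the CD males for 8 of the 9 members. E59 belongs to library series 1, where the median of the 9 male values was 2.30 with 9 above 0, while in series 2 it was 0.32 with 6 above 0. Exact two-sided permutation tests on log2 CPM over the 462 splits of the 11 males gave p from 0.563 to 0.944 for the single members.

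**Figure D4:**
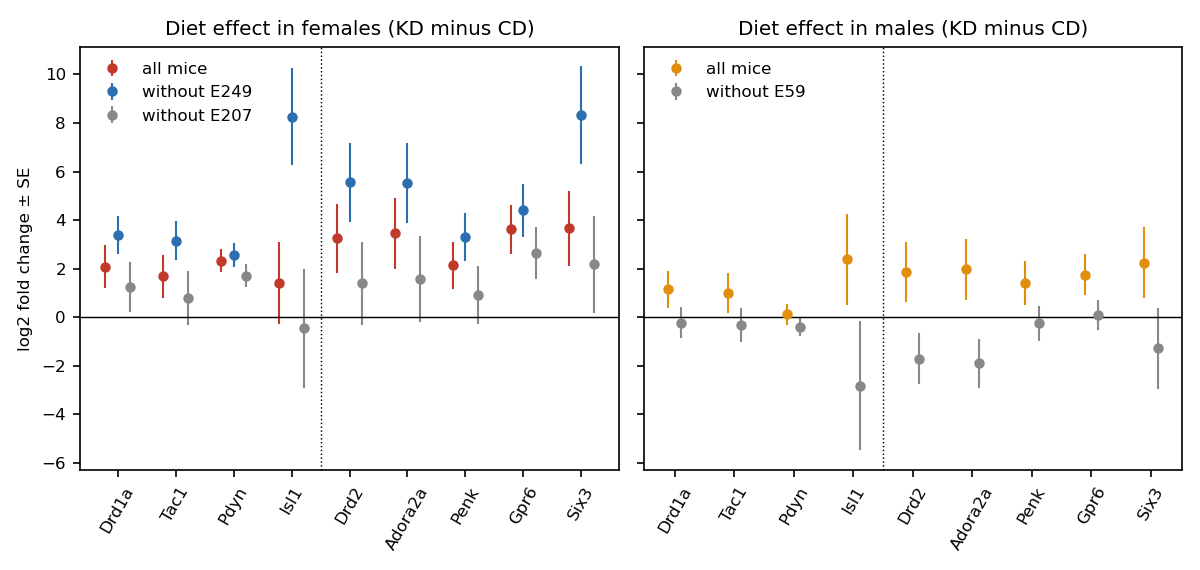
Points are fitted log2 fold changes (KD minus CD) and bars are their standard errors for the 9 members, direct class left of the dotted line, in females (left panel) and males (right panel). In females the values were higher without the CD female E249 and lower without the KD female E207; in males all but Gpr6 went below 0 without E59.

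The difference between the female and the male diet effect was positive for 8 of 9 members and was called for none (0 of 15660 genes, 0%; 335 at an unadjusted p under 0.05; edgeR). It was largest for Pdyn, at 2.20 (SE 0.64, adjusted p 0.9999), followed by Gpr6 at 1.86 (SE 1.30), and it was -0.97 (SE 2.48) for Isl1. The other 6 members lay between 0.67 (Tac1) and 1.49 (Adora2a). Pdyn had the smallest standard error of the members here, and its level in E59 was 14.7 CPM against 19.9 to 29.7 CPM in the 3 high KD females. Without E227 the count of members called was 1, with 41 genes (0.257%). The median was 2.25 in library series 1 and 1.45 in series 2. Without E207 the value was negative for 6 of the 9 members.

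On CD, females and males did not differ by a call in any member (6 of 15660 genes, 0.0383%). Fitted values, as females minus males, ran from -0.65 (Gpr6) to 4.34 (Isl1, SE 2.14) with a median of 0.82. E249 set the sign of most of them: without it 7 of 9 values were below 0, with Isl1 at -1.95, Six3 at -3.14 and Penk at 0.49. The median was -2.06 in library series 1, with 0 of 9 values above 0, and 1.89 in series 2, which holds E249, with 8 of 9 above 0. The E249 level exceeded that of every CD male for 6 of 9 members, and for Adora2a, Gpr6 and Pdyn it did not.

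On KD, all 9 fitted values were higher in females, from 1.21 (Gpr6) to 3.37 (Isl1), with Pdyn at 1.94 (SE 0.44), and none was called against 12 of 15660 genes (0.0766%). DESeq2 and the likelihood ratio test each called 1 member, with 1.8% and 1.82% of genes. Values were above 0 for 9 of 9 members in each library series, with medians of 1.49 and 3.68. Without the KD male E59 all 9 were called higher in females, with 451 genes called in either direction (2.91%) and 343 called higher (2.21%). Without E227 there were 3 members among 1346 genes (8.44%), and without E249 there was 1 among 389 (2.48%). These mice are those of the diet comparisons, so the values are not a separate line of evidence.

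Other genes of the pathways were read from lists. Of 5 further direct-pathway genes, 0 were called in either sex. The median female log2 fold change was 0.51, and Slc35d3 had 2.39 (SE 1.12), Ebf1 0.68 (SE 0.39) and Chrm4, the M4 muscarinic receptor gene, 0.51 (SE 0.27). Of 5 further indirect-pathway genes, 0 were called. The median was 0.62, with Upb1 at 1.92 (SE 1.02), Gpr52 at 1.32 (SE 0.62) and Plxdc1 at -0.88 (SE 0.42). Values in these lists ran from -0.31 to 2.39 and from -0.88 to 1.92, so the lower ends lay below 0.

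Of 18 genes that both classes use, 0 were called, while the fitted value was above 0 for all 18 in both sexes. The median was 1.33 in females and 0.72 in males. Of all 15660 genes tested, 8250 were above 0 in females and 7696 in males. The summed level of the 18 genes was 7660 CPM in the KD male E59. It was 1481 to 1630 CPM in the other KD males and 1455.5 to 2140 CPM in CD males, so the male values rested on E59 here too. Female values were 2.12 (SE 0.76) for Ppp1r1b, which encodes the dopamine signalling protein DARPP-32, and 1.95 (SE 1.06) for Gpr149. Of 10 tested genes of the ligands' partners, 6 were higher and 4 lower in KD females, none called, with Drd3, the D3 receptor, at 2.59 (SE 1.21), Tacr3, a tachykinin receptor, at 2.14 (SE 0.82) and Oprk1, the receptor of dynorphins, at 1.83 (SE 0.70). Drd3 was at 2.25, 2.76 and 6.48 CPM in E61, E68 and E207, 2.62 CPM in E249 and 0.61 CPM in E59, and at most 0.113 CPM in the other 15 libraries.

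By likeness of log2 CPM over the 20 libraries, genes outside the set close to the direct profile were Rgs9 (Pearson r = 0.98), Slc5a7 (0.98), Six3os1 (0.98) and Gnal (0.98). Slc5a7, the choline transporter, is a known cholinergic gene. Closest to the indirect profile were Lrrc10b (0.98), Stk32a (0.98), Rgs9 (0.98), Tgfa (0.98) and Ppp1r1b (0.98). All points share the library, its depth and its tissue make-up, and the few high libraries carry most of each r: Spearman's rho for these genes ran from 0.77 (Gnal) to 0.95 (Lrrc10b). Members enter their own class profile. Drd1a had r = 0.98 with both profiles and Six3 had 0.98 with both, while Pdyn had 0.88 with the direct and 0.89 with the indirect profile.

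Markers of other cell types moved with the members, and their part in the results was not tested. The summed level of 10 cortical excitatory genes was 396, 410 and 458 CPM in E61, E68 and E207 and 406 CPM in E249, against 821 to 1205 CPM in the other 15 libraries, and it was 940 CPM in E59. None of these 10 markers was at 0 in any library. In females, 10 of 10 had fitted values below 0 on KD, with Fezf2 at -1.71 (SE 0.71) and Neurod6 at -1.45 (SE 0.49), none called. E59 thus combined high levels of the members with a cortical sum inside the range of the other 15.

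The summed level of 6 cholinergic genes was 119, 142 and 105 CPM in E61, E68 and E207, 85.9 CPM in E249 and 53.8 CPM in E59, against 0.953 to 5.50 CPM in the other 15 libraries. Chat, which makes acetylcholine, was at 20.4, 16.6, 14.1, 6.72 and 11.8 CPM in the same order and at most 0.962 CPM elsewhere. Of this list 5 were tested and all had values above 0 in females, with Lhx8 at 2.97 (SE 1.45) and Chat at 2.60 (SE 1.38). The Isl1 order (E68, E207, E249, E61, E59) shared its first and last library with the cholinergic sum, but not the order between them. The same held for Lhx8, at 15.5 CPM in E68 and 1.60 CPM in E59. For Chat, E61 led and E249 came last of the 5. Whether cholinergic cells added to the Isl1 counts was not tested.

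Choroid plexus genes separated E59 from the KD females. Their sum (8 genes) was 2366 CPM in E59, with Ttr, the transthyretin gene, at 2187 CPM. It was 43.7 to 50.0 CPM in E61, E68, E207 and E249, against 14.3 to 63.3 CPM in the other 15. Ttr itself was at 2.60, 0.603, 2.28 and 2.38 CPM in E61, E68, E207 and E249. These values lay below the 6.51 to 41.2 CPM of the other 15, so other genes of the list made up most of those sums. The largest female values of this list were 1.84 (SE 1.17) for Clic6, 1.06 (SE 0.72) for Kl and -0.83 (SE 1.81) for Folr1. The 6 genes of the dentate gyrus summed to 28.8, 27.2, 30.0, 39.8 and 52.6 CPM in E61, E68, E207, E249 and E59 and 72.5 to 142 CPM elsewhere, with Trpc6 at -1.47 (SE 0.44), Tdo2 at -1.09 (SE 0.37) and C1ql2 at -1.08 (SE 1.12) in females. In females 5 of the 6 fitted values were below 0, and Dsp was at 0.62 (SE 0.60). The summed level was low in the libraries with high Pdyn, and also in E249, where Pdyn was at 4.67 CPM. Whether dentate cells added to the Pdyn counts was not tested.

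**Figure D5:**
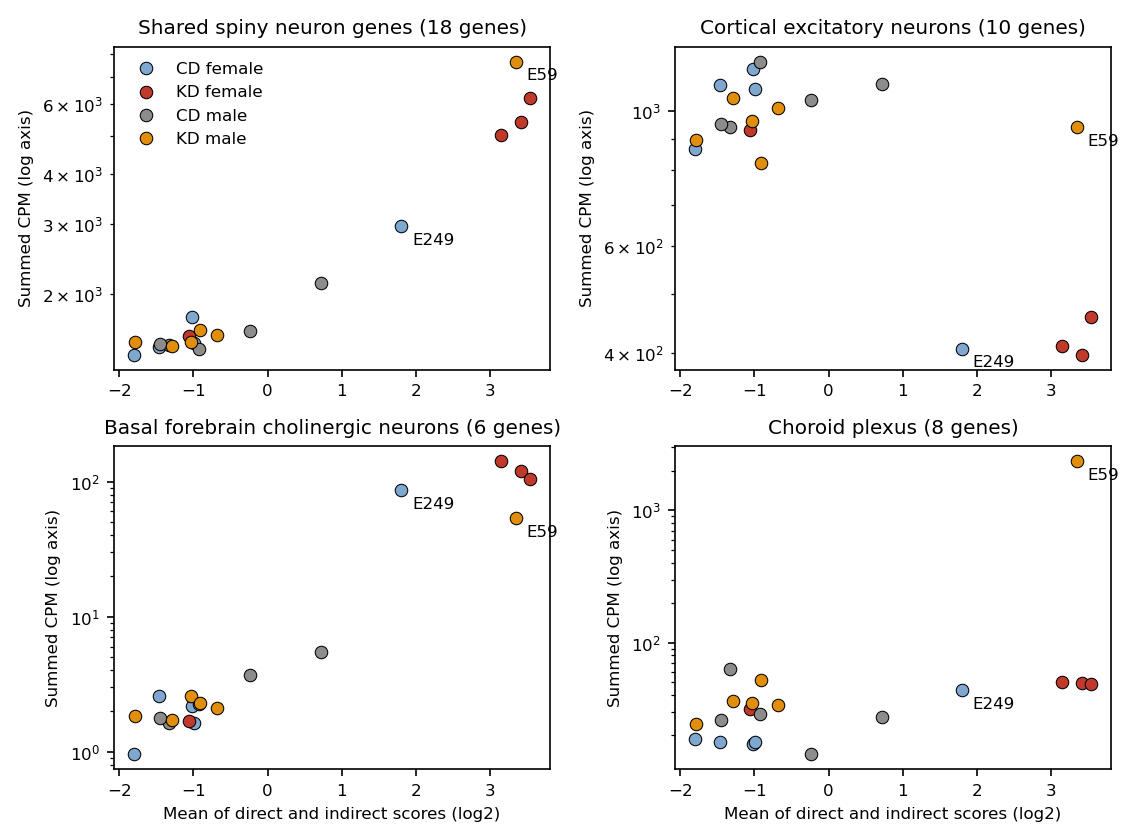
Each point is 1 library, with the mean of its direct and indirect scores on the horizontal axis and the summed CPM of a marker list on a logarithmic vertical axis. Shared spiny neuron and cholinergic genes are high where the scores are high, cortical genes are low in E249 and in the 3 high KD females but not in E59, and choroid plexus genes are high in E59.

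The summed level of 6 cortical interneuron genes was also higher in most of these libraries. Single genes went both ways, with fitted values in females above 0 for 3 and below 0 for 3. Genes of this list, among them Gad1, Npy and Lhx6, are also expressed in striatum. The sum was 943 to 1135 CPM in E61, E68, E207 and E249, 908 CPM in E59 and 562 to 908 CPM in the other 15. In females Vip was at -1.25 (SE 0.37), Pvalb at -0.91 (SE 0.50) and Lhx6 at 0.80 (SE 0.21). Olfactory and septal genes were highest in E249, at 153 CPM against 29.7 to 94.9 CPM in the other 19, with Zic1 at 52.2 CPM. Eomes had -0.97 (SE 1.20), Trpc4 -0.69 (SE 0.27) and Zic1 0.55 (SE 0.61) in females. Of 6 hypothalamic genes only Agrp could be tested (-0.64, SE 0.36), and their sum was 8.23 CPM in E61 and at most 2.87 CPM in the other libraries. No gene of these lists was called in any comparison.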

How the data were processed

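RNA of the brain cortex of 20 APOE4 knock-in mice had been sequenced as 50-bp read pairs from stranded total RNA libraries, 1 library per mouse. The authors aligned reads with STAR to mm10 and deposited raw counts of reads per gene. The STAR version, annotation and counted strand are not given in the sources used here. The 9 genes, the lists and the tests were chosen with earlier results of these data known. Groups come from the labels, where SD stands for the control diet.

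Counts were fitted with edgeR 4.0.16 (robust quasi-likelihood, upper-quartile scaling, filterByExpr) on the 4 groups and the library series, with all 20 libraries in 1 fit. All list genes with values are the 3 of largest absolute female change per list, and likeness names the 5 closest genes per class. A few genes that these rules name are not reported here. CPM used library totals, and log2 CPM a prior count of 2. The test was tried on simulated data, where 15532 genes held 200 with a 4-fold female diet effect. It called 92% of those and 15 others. The changed genes were picked at random, and no simulated library stood apart from its group across many genes. The 92% therefore does not carry over to the members. Alternatives were TMM, DESeq2 1.42.0, a likelihood ratio test, other filters, no series term, RUVg, each series, each sex and leaving out each mouse. SciPy 1.17.1 gave exact tests and intervals. Drd4 did not pass the filter.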

Additional observations from a re-analysis of the deposited data

Results flagged for a closer look

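A library was flagged where its gap to the nearest mouse of its own group exceeded the 95% critical value of Dixon's ratio (gap divided by the group's range, on log2 CPM). There were 15 flags in 40 tested sets of values (9 members and the balance in 4 groups), where chance gives about 1 in 20, or 2. Flags of one library are not independent of each other, because its members were high or low together. The members were also chosen with earlier results of these data known, so the chance rate does not carry over to them. Isl1 and Six3 had no count in 8 and 9 libraries, so the sizes of their gaps depend on the prior count.

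The KD male E59 was flagged as the highest of 6 for Drd1a (0.752), Tac1 (0.747), Isl1 (0.803), Drd2 (0.856), Adora2a (0.792) and Six3 (0.729). The KD female E227 was flagged as the lowest of 4 for Drd1a (0.917), Tac1 (0.915), Isl1 (0.934), Penk (0.946) and Six3 (0.954). The CD female E249 was flagged as the highest of 5 for Drd1a (0.806), Isl1 (0.808), Six3 (0.878) and the class balance (0.724). Pdyn and Gpr6 had no flag in any group, and no CD male was flagged.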

How the results depend on the processing

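No paired analysis was possible because the groups share no replicate numbers. The count of members called was 0 in all 5 comparisons. In females it was 2 with DESeq2, 2 with the likelihood ratio test and 1 in library series 1 alone, and leaving out single mice gave 0 to 9. In the difference between the sexes' diet effects leaving out mice gave 0 to 1. For females against males on KD it was 1 with DESeq2 and 1 with the likelihood ratio test, and 0 to 9 when leaving out mice. The counts above 0 came from leaving out E249, E227 or E59, as given with each comparison. In males and on CD the count was 0 under every alternative run. A filter of at least 10 counts in every library kept only Drd1a, Tac1, Pdyn and Penk. Isl1 and Six3 did not pass the filter when males were fitted alone.

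Male diet effects changed sign in library series 2 alone for Pdyn (-0.34), Drd2 (-0.35) and Adora2a (-0.39). Leaving out single mice gave -0.23 to 1.41 for Drd1a, -0.32 to 1.21 for Tac1, -0.38 to 0.25 for Pdyn, -2.81 to 3.15 for Isl1, -1.70 to 2.58 for Drd2, -1.90 to 2.87 for Adora2a, -0.24 to 1.72 for Penk and -1.28 to 3.16 for Six3, and each lowest value was that without E59.

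The difference of diet effects changed sign for Isl1 with RUVg (0.38) and in series 1 alone (6.56) and for Six3 in series 2 alone (-1.21). Leaving out mice gave -0.17 to 2.26 for Tac1, -2.90 to 5.81 for Isl1, -0.40 to 5.27 for Drd2, -0.33 to 5.68 for Adora2a, -0.42 to 2.64 for Penk and -0.15 to 5.99 for Six3, with each lowest value without E207.

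On CD, the value of females minus males changed sign in series 1 alone for Drd1a (-1.01), Tac1 (-0.26), Isl1 (-3.92), Drd2 (-3.26), Adora2a (-2.42), Penk (-0.065) and Six3 (-3.36), and in series 2 alone for Gpr6 (0.30). It also did so without the series term for Drd2 (-0.38) and Adora2a (-0.79) and with RUVg for Drd2 (-0.039). Leaving out mice gave -0.43 to 1.23 for Drd1a, -1.95 to 5.47 for Isl1, -1.72 to 1.11 for Drd2, -1.47 to 1.16 for Adora2a and -3.14 to 2.01 for Six3. The cause of these changes was not tested beyond the mice named. Where a group of 4 loses a mouse, few mice remain to estimate its mean, and Isl1 and Six3 rest on counts near 0 in most libraries.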
